A study of Mus musculus with 42 samples.

Results

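A set of 10 genes of fatty acid synthesis and desaturation was followed in mouse cerebellum across 2 fasting regimens and a later period of free feeding. They were chosen by symbol, as Fasn, Acaca, Acly, Scd1, Scd2, Fads1, Fads2, Elovl5, Elovl6 and Srebf1, and all 10 were found among the 35275 genes of the deposited tables. All 10 passed the filter on low counts in both tables. The study measured RNA in the cerebellum of male C57BL/6 (C57/BL6NTac) mice that had fed freely until 3 months of age. From then until 6 months of age the AL group fed ad libitum. The IF16 group had food from the morning until mid-afternoon and fasted for the other 16 h of each day, and the EOD group alternated free feeding with fasts of 24 h. Further mice went through the same 3 regimens and then all fed ad libitum for 2 months, to 8 months of age (the refed AL, refed IF16 and refed EOD groups, marked by an R after the group name in the plots). Each of the 6 groups had 5 libraries, and no group carried a genetic change. Every library was whole cerebellum. The labels do not say whether each library was 1 mouse or at what hour after the last meal tissue was taken, so p-values measure the spread between these libraries. In bulk tissue, fewer cells of a type and less RNA per cell cannot be told apart.

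Fatty acid synthesis begins in the cytosol, where ATP citrate lyase (Acly) makes acetyl-CoA from citrate, acetyl-CoA carboxylase (Acaca) turns it into malonyl-CoA, and fatty acid synthase (Fasn) builds palmitate from both. Elovl6 lengthens palmitate, stearoyl-CoA desaturases (Scd1, Scd2) place a double bond in saturated chains, and Fads2, Fads1 and Elovl5 turn dietary essential fatty acids into long polyunsaturated ones such as arachidonic acid and precursors of DHA. Srebf1 encodes SREBP-1, the transcription factor that turns on most of these genes, and in liver its mRNA is known to fall with fasting and to rise on refeeding. In brain, Scd2 is the main stearoyl-CoA desaturase and these pathways supply myelin and synaptic membranes.

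In the deposited tables, which follow build mm10, 4 of the genes lie on chromosome 11 and 4 on chromosome 19. Srebf1 (ENSMUSG00000020538) is at chr11:60199089-60222581 on the minus strand, and Fads2 (ENSMUSG00000024665) is at chr19:10064164-10101503, also on the minus strand. Fads1 and Fads2 point away from each other with 81.4 kb between their starts, and the paralogs Scd1 and Scd2 are 87.6 kb apart. Srebf1 shares 109 bases at its 3′ end with Rai1 on the other strand. The upstream sequences of the genes whose counts differed most between the groups (Fads2 and Srebf1), and of Fasn as the central synthase, are shown because SREBP-1 acts through such windows. RefSeq (GRCm38.p6) held windows for 7 of the 10 genes and none was found for Scd1, Scd2 and Fads1. Each line gives the 250 bases before a RefSeq start, 5′ to 3′ on the gene's own strand, with matches to the motifs CCAAT (bound by NF-Y), GGGCGG (bound by Sp1), CATGTG and CACGTG (E-boxes) and TCACNCCAC (the classical sterol regulatory element) in capitals on either strand. For Fads2 the window is chr19:10101504-10101753, for Srebf1 chr11:60210472-60210721, before the most downstream of its 3 RefSeq starts, and for Fasn chr11:120824548-120824797.
Fads2: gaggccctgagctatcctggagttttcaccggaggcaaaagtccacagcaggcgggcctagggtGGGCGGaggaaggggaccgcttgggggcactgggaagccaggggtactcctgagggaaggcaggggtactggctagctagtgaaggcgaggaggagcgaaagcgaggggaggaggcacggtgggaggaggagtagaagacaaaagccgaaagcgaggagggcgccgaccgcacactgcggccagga
Srebf1: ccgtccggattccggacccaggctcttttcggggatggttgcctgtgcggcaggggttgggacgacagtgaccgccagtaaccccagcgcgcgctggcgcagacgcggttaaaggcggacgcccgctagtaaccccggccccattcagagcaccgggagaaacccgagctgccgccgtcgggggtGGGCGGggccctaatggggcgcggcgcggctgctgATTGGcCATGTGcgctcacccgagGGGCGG
Fasn: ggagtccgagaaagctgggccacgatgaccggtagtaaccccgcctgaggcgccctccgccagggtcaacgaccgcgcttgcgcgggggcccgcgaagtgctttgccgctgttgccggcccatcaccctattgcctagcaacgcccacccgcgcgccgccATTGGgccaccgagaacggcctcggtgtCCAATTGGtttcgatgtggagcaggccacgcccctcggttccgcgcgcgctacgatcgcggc
The Fads2 window held 1 GGGCGG. The Srebf1 window held 2 GGGCGG, 1 CATGTG and 1 CCAAT on the opposite strand, and the Fasn window held 3 CCAAT, of which 2 overlap on opposite strands. Of 32851 windows of this length in the RefSeq table, 33.8% held CCAAT, 32.7% GGGCGG, 12.3% CATGTG, 6.02% CACGTG and 1.05% TCACNCCAC. None of the 7 genes had TCACNCCAC within its windows, and CACGTG was found for Elovl5 alone. These are matches of letters in short windows. The counts are per gene, so transcripts from the 3 starts of Srebf1 are not separated.

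Library totals ran from 26799825 to 36167435 counts. Some libraries stood apart in ways the groups do not explain. The length gradient of a library, the slope of its genes' log2 deviations on log2 gene length, ran from -0.158 to 0.139 at the end of the regimens and from -0.0261 to 0.0416 after refeeding, and 4 libraries were beyond 0.1 in size (AL replicates 4 and 5, IF16 replicate 1 and EOD replicate 4). The summed level of 7 liver transcripts was 98.2 CPM (counts relative to the TMM-scaled library total, within each table) in EOD replicate 1 and at most 2.43 CPM in the other libraries of that table, it was 23.9 CPM in refed EOD replicate 5, and 11 choroid plexus markers summed to between 154 and 5122 CPM per library. Granule cell, Purkinje cell and Bergmann glia markers were present in every group, as the tissue label says, and 6 adipocyte markers summed to at most 0.552 CPM.

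Per unit of transcript length, Scd2 stood far above the other 9 genes in every group. In the AL group its level was 264 ± 27.3 FPKM (SD, n = 5), against 33.7 ± 5.19 FPKM for Scd1, so that Scd1 made up 11.3% ± 0.751 of the summed level of both. That share stayed between 11.3% and 11.8% on average in all 6 groups. Fads1, the delta-5 desaturase, came next in AL with 53.0 ± 0.797 FPKM, followed by Fads2, the delta-6 desaturase, with 48.7 ± 1.96 FPKM, and the ranges of those neighbours did not overlap. Acly (43.6 ± 2.77 FPKM), Elovl5 (36.6 ± 4.23 FPKM) and Scd1 formed a middle group whose neighbours overlapped. Fasn stood at 20.9 ± 0.646 FPKM, Srebf1 at 18.2 ± 0.796, Elovl6 at 12.3 ± 2.36 and Acaca at 5.36 ± 0.518, and no neighbours overlapped from Scd1 to Acaca. The order moved little between groups. In IF16 and in EOD the ranges of Srebf1 and Elovl6 overlapped, whereas in AL and in all 3 refed groups they did not. In refed IF16 the mean of Fads2 (53.2 ± 3.56 FPKM) lay above that of Fads1 (52.1 ± 1.71 FPKM), with overlapping ranges.

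**Figure D1:**
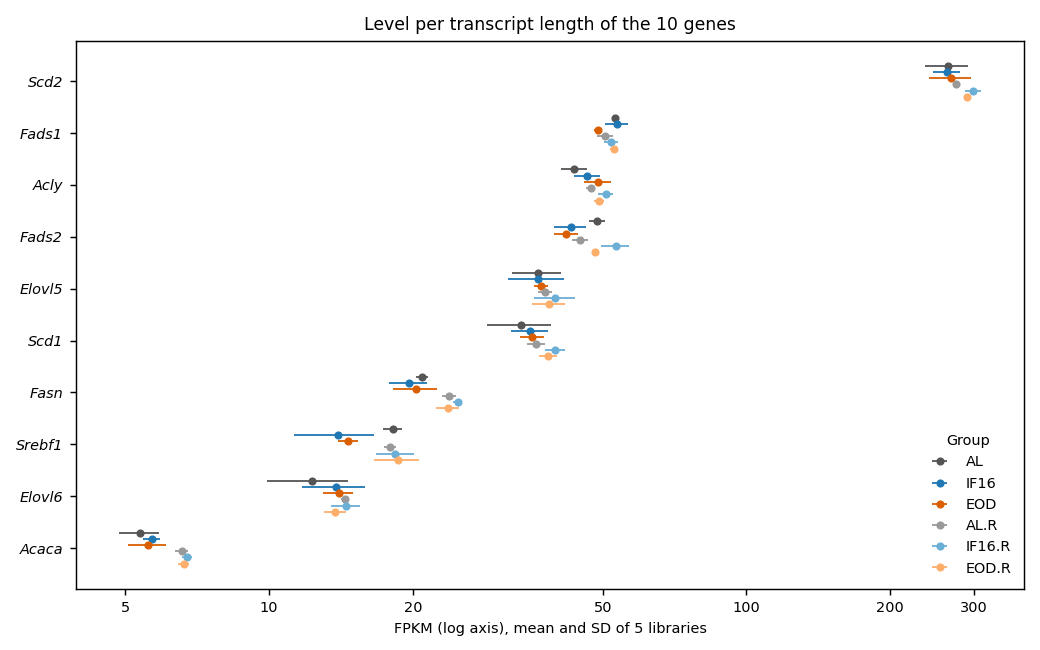
Mean and SD of the deposited FPKM (log axis) of the 10 genes in the 6 groups, 5 libraries each, with genes ordered by their mean over groups. Scd2 lies between 263 and 299 FPKM in every group, Acaca between 5.36 and 6.73, and Srebf1 between 13.9 (IF16) and 18.6 (refed EOD).

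At the end of the regimens none of the 10 genes passed the test in either fasting group against AL. Srebf1 and Fads2 had the lowest levels relative to AL under both regimens, Srebf1 with 0.764 times the AL level in IF16 and 0.813 times in EOD, and Fads2 with 0.875 and 0.868 times. In IF16 against AL, edgeR called 0 of 10 genes, where the background was 0.0483% of 16577 genes. DESeq2 also called 0, and 2 of 10 were under an unadjusted p of 0.05, as were 9.92% of all genes. In EOD against AL, edgeR called 0 of 10 (background 0.0664%), DESeq2 0, and 3 of 10 were under an unadjusted p of 0.05, beside 14.4% of all genes. Both comparisons use the same 5 AL libraries, so their likeness is not independent.

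Srebf1, the transcription factor, gave 72.9, 80.8, 78.8, 82.2 and 75.7 CPM in the AL libraries. In IF16 it gave 64.7, 76.6, 45.9, 58.0 and 53.1 CPM, and in EOD 61.1, 60.8, 62.5, 71.0 and 61.7 CPM. All 10 libraries of the fasting regimens lay below the AL mean of 78.1 CPM, 1 IF16 library lay inside the AL range, and no EOD library did. Ranges of IF16 and AL overlapped for all 10 genes, and 1.55% of all genes had ranges that did not. Srebf1 was the only gene of the 10 whose EOD and AL ranges did not overlap, as held for 2.9% of all genes. The log2 fold change was -0.39 (SE 0.104) in IF16, with an edgeR adjusted p of 0.274, and -0.30 (SE 0.104) in EOD, with an adjusted p of 0.309. Neither passed the threshold, although in IF16 Srebf1 ranked 108 of 16577 genes by p. DESeq2 gave adjusted p-values of 0.0669 and 0.195. The IF16 group was the most variable of the 6 for this gene, with a coefficient of variation of 19.7% against 4.84% in AL. Rai1, which overlaps the 3′ end of Srebf1, had log2 fold changes of -0.09 (SE 0.0868) in IF16 and 0.03 (SE 0.0868) in EOD.

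Fads2, the first desaturase of polyunsaturated fatty acid synthesis, gave 72.0, 76.3, 73.2, 75.5 and 70.2 CPM in AL. In IF16 it gave 62.3, 72.3, 57.8, 65.3 and 63.5 CPM, and in EOD 60.1, 62.8, 58.9, 71.6 and 65.3 CPM. One library of each fasting group lay inside the AL range, and all 10 lay below the AL mean. The log2 fold change was -0.19 (SE 0.0683, edgeR adjusted p = 0.398) in IF16 and -0.20 (SE 0.0684, adjusted p = 0.299) in EOD. Its neighbour Fads1 had group means of 183 CPM for AL, 184 for IF16 and 170.2 for EOD, with log2 fold changes of 0.00 (95% interval -0.11 to 0.12) in IF16 and -0.11 (-0.22 to 0.01) in EOD.

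The 3 enzymes of palmitate synthesis differed little between groups. Acly gave 202, 195, 198, 190 and 180.0 CPM in AL and 209, 222, 202, 249 and 209 CPM in EOD, and 4 of the 5 EOD libraries lay above the whole AL range. Its log2 fold change in EOD was 0.18 (SE 0.0657, unadjusted p = 0.0154, edgeR adjusted p = 0.316), and in IF16 it was 0.08 (95% interval -0.06 to 0.22). The highest EOD value came from replicate 4, the library with the largest positive length gradient, and the EOD value was 0.09 with the length gradient as a covariate and 0.08 without the 4 libraries beyond 0.1. Fasn averaged 201 ± 7.01 CPM in AL, where IF16 had 187 ± 17.9 and EOD 197 ± 24.7 (SD, n = 5 each). Acaca had means of 51.0 ± 4.46, 53.6 ± 1.89 and 53.5 ± 5.67 CPM. The intervals of both genes included 0 in both comparisons, from -0.28 to 0.15 for Fasn and from -0.09 to 0.23 for Acaca.

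The stearoyl-CoA desaturases and the elongases also stayed within the spread. Scd2 had means of 1439 ± 119 CPM for AL, 1426 ± 79.5 for IF16 and 1477 ± 177 for EOD, and EOD replicate 4 alone exceeded the AL range with 1778 CPM. Scd1, an enzyme of monounsaturated fatty acid synthesis in many tissues, had means of 163 ± 22.2, 169 ± 13.5 and 173 ± 8.13 CPM. Elovl6, which lengthens palmitate, had 72.9 ± 12.6 CPM in AL against 81.6 ± 11.4 for IF16 and 83.9 ± 5.86 for EOD, with log2 fold changes of 0.16 (95% interval -0.07 to 0.40) and 0.20 (-0.03 to 0.44), which were 0.08 and 0.03 with the length gradient as a covariate. Elovl5, which lengthens polyunsaturated chains, had 102 ± 10.3, 101 ± 12.6 and 104 ± 4.46 CPM. In EOD against AL, the values of Scd1, Scd2 and Elovl5 turned from above 0 to below 0 once the length gradient was a covariate, and without EOD replicate 1, which carried the liver transcripts, all 10 genes kept the sign they had.

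**Figure D2:**
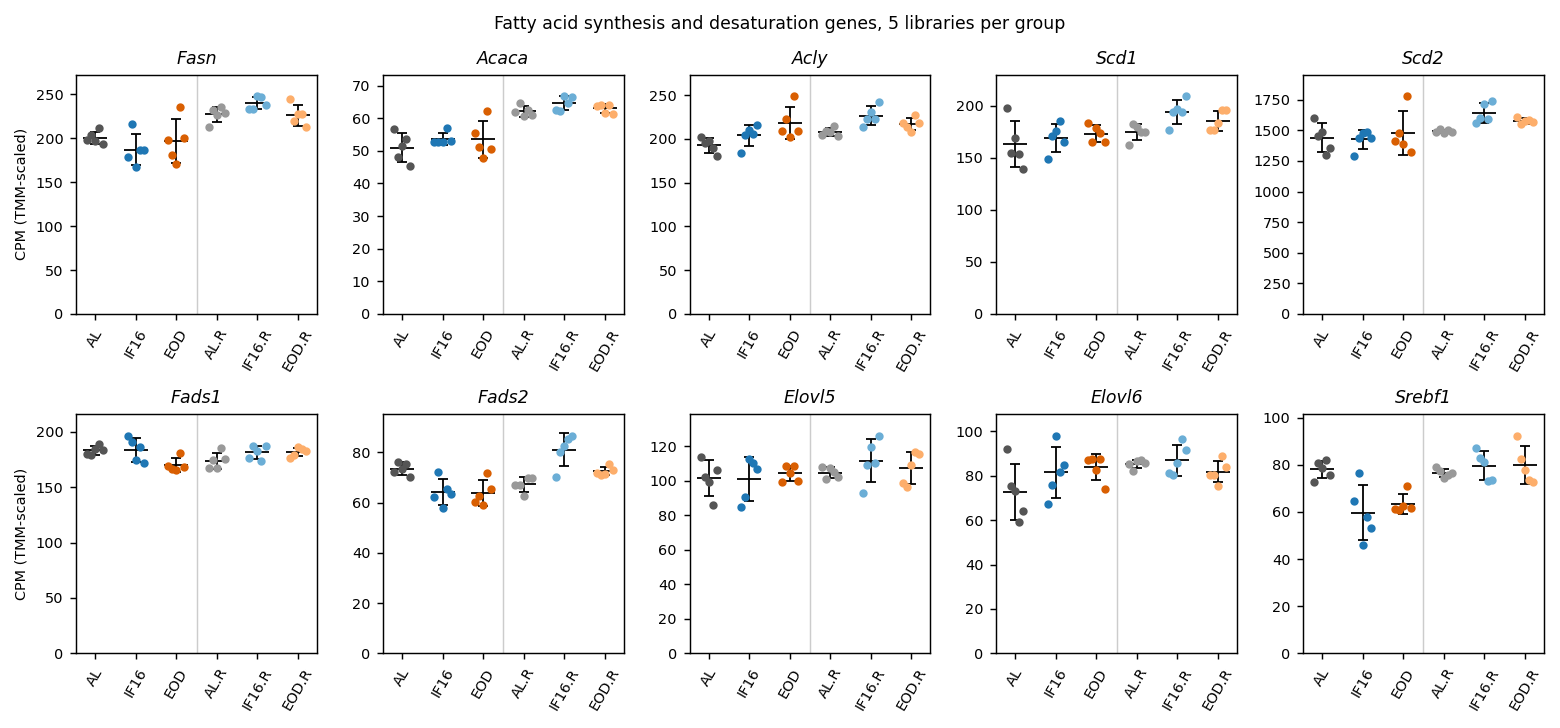
TMM-scaled CPM of the 10 genes, 1 panel each, with 5 libraries per group as points and the group mean and SD as black marks. The grey line divides the table of the regimens from the table of refeeding, which were scaled separately. Srebf1 and Fads2 lie lower in IF16 and EOD than in AL (Srebf1 means 59.6 and 63.4 against 78.1 CPM), and among the refed groups Fads2 is highest in refed IF16 (mean 81.0 CPM).

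Between the 2 fasting regimens none of the 10 genes passed the test. For EOD against IF16, edgeR called 0 of 10, at a background of 0% of 16577 genes, none was under an unadjusted p of 0.05 (3.62% of all genes were), and DESeq2 called 0. All 10 ranges overlapped, and 0.688% of all genes had ranges that did not. The interval of the log2 difference ran from -0.13 to 0.31 for Srebf1 and from -0.16 to 0.13 for Fads2. The gene with the smallest p was Fads1 (-0.11, SE 0.0536, unadjusted p = 0.0535).

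After 2 months of free feeding, Fads2 was higher in mice that had been on IF16, with a mean of 81.0 ± 6.55 CPM in refed IF16 against 67.3 ± 2.87 CPM in refed AL (SD, n = 5 each). All 10 genes had a positive log2 fold change, as had 48.8% of all genes. The count was 7 of 10 (median 0.05) with the length gradient as a covariate and 5 of 10 (median 0.02) with the astrocyte marker mean. Fads2 was 1 of 10 genes called by edgeR, where the background was 0.17% of 16444 genes. The 10 log2 fold changes ran from 0.03 (Elovl6) to 0.27 (Fads2) with a median of 0.08, beside a median of -0.0023 over all genes. The values of Fads2, Scd2, Acly and Scd1 were under an unadjusted p of 0.05, 4 of 10 genes, as were 9.58% of all genes.

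Fads2 gave 66.9, 67.0, 62.8, 69.6 and 69.9 CPM in refed AL and 70.2, 80.0, 82.6, 85.4 and 86.7 CPM in refed IF16. Every refed IF16 library lay above every refed AL library, with replicate 1 of refed IF16 only just above. Ranges that did not overlap were found for 2 of the 10 genes, Fads2 and Scd2, and for 2.18% of all genes. The log2 fold change was 0.27 (SE 0.0488, 95% interval 0.16 to 0.37), with an edgeR adjusted p of 0.0312, and DESeq2 gave 0.000211. This call was close to the threshold. Of 10 fits that each left out 1 library, 9 lost it, with adjusted p-values from 0.0535 (without refed AL replicate 5) to 0.109 (without refed IF16 replicate 3). Without refed IF16 replicate 1 it was 0.000302, and the log2 fold change stayed between 0.24 and 0.32 throughout.

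Marker genes of other cell types were read in the same comparison. Of 10 astrocyte and Bergmann glia markers, 9 had positive log2 fold changes in refed IF16 against refed AL, and the water channel Aqp4 (0.23, edgeR adjusted p = 0.0374) and the gap junction protein Gja1 (0.31, adjusted p = 0.0116) were called higher. Their summed level ran from 5273 to 5931 CPM in refed AL and from 5621 to 6031 CPM in refed IF16, and their mean log2 CPM from 8.19 to 8.30 and from 8.31 to 8.41. Of 10 oligodendrocyte markers, 9 were also positive, 0 were called, and their summed level ran from 5087 to 5644 CPM in refed AL and from 5259 to 7108 CPM in refed IF16. No marker of either list was at 0. Red blood cell markers were positive in 0 of 5 (median -0.88, 2 under an unadjusted p of 0.05, 0 called) and choroid plexus markers in 0 of 11 (median -0.83, 0 called). The length gradient was above 0 in all 5 refed IF16 libraries (0.00465 to 0.0416) and below 0 in all 5 refed AL libraries (-0.0257 to -0.00359), and the listed length of Fads2, 1508 bases, was above that of only 17.9% of tested genes. With the astrocyte marker mean as a covariate, the log2 fold change of Fads2 was 0.12 (SE 0.0732, adjusted p = 0.9998). With the length gradient it was 0.21 (SE 0.0719, unadjusted p = 0.00893, adjusted p = 0.999), and with the oligodendrocyte marker mean 0.21 (adjusted p = 0.193). The astrocyte and length gradient fits called 0 genes of all, in place of 28. Ranges of each of these covariates did not overlap between refed IF16 and refed AL, so those fits separate them poorly from the group. This held for the oligodendrocyte mean log2 CPM too, at most 7.305 in refed AL and at least 7.314 in refed IF16. Beyond these fits the part of the markers and of the gradient in the result was not tested.

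**Figure D3:**
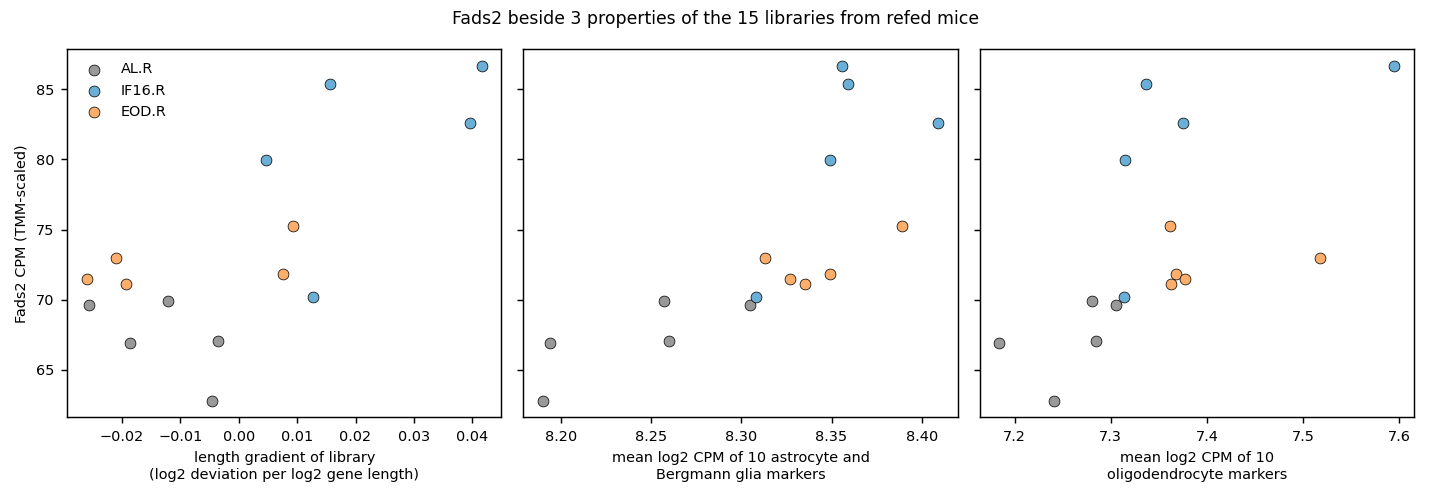
Fads2 in TMM-scaled CPM (vertical axes) in the 15 libraries of refed mice against the length gradient of the library, the mean log2 CPM of 10 astrocyte and Bergmann glia markers, and the mean log2 CPM of 10 oligodendrocyte markers. The refed IF16 libraries lie to the right of the refed AL libraries in every panel, in the third by a small margin (7.314 against 7.305). Of the refed IF16 libraries, 4, at 80.0 to 86.7 CPM, lie above all other points.

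Scd2, the main stearoyl-CoA desaturase of brain, gave 1486, 1509, 1481, 1503 and 1484 CPM in refed AL. In refed IF16 it gave 1564, 1601, 1712, 1589 and 1739 CPM, all above the refed AL range. The log2 fold change was 0.14 (SE 0.0294), and the edgeR adjusted p of 0.0753 missed the threshold, which DESeq2 passed (0.00326). Of 10 edgeR fits that each left out 1 library, 1 called it, the fit without refed IF16 replicate 1. The value was 0.07 with the length gradient as a covariate (adjusted p = 0.999) and 0.08 with the astrocyte marker mean (adjusted p = 0.9998). With the oligodendrocyte marker mean it was 0.09 (adjusted p = 0.389). The refed AL libraries were unusually alike for this gene, with a coefficient of variation of 0.819%, against 4.81% in refed IF16. Acly gave 204, 209, 208, 215 and 204 CPM in refed AL and 213, 223, 231, 222 and 242 CPM in refed IF16 (0.12, SE 0.0363, adjusted p = 0.280). Scd1 gave 163, 182, 179, 175 and 175 CPM in refed AL and 176, 193, 197, 194 and 209 CPM in refed IF16 (0.15, SE 0.0459, adjusted p = 0.293). For both genes 1 refed IF16 library lay inside the refed AL range and 4 above it. Srebf1, lowest of the 10 relative to AL at the end of the regimens, had a mean of 79.6 ± 6.11 CPM in refed IF16 against 76.7 ± 1.71 in refed AL. The interval of its log2 fold change was -0.07 to 0.18.

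In refed EOD against refed AL no gene of the 10 passed the test. EdgeR called 0 of 10 (background 0.0426%), DESeq2 0, and 2 of 10, Scd2 and Fads2, were under an unadjusted p of 0.05, as were 8.5% of all genes. Fads2 gave 71.8, 71.1, 71.5, 75.3 and 73.0 CPM in refed EOD, all above the refed AL range but below 4 of the 5 refed IF16 libraries. Its log2 fold change was 0.11 (SE 0.0490, edgeR adjusted p = 0.562). Scd2 gave 1612, 1549, 1577, 1582 and 1572 CPM, also all above refed AL (0.08, SE 0.0294, adjusted p = 0.444). These were the 2 of 10 genes whose ranges did not overlap, as held for 1.87% of all genes. The other 8 had log2 fold changes from -0.06 (Elovl6) to 0.09 (Scd1). Astrocyte markers were above the refed AL level here too, 10 of 10, with Gja1 called (0.27, adjusted p = 0.0427). Oligodendrocyte markers were positive in 9 of 10, 5 of them under an unadjusted p of 0.05, and red blood cell markers were negative in 5 of 5, all under that p (median -1.61), with 0 called in both lists. With the astrocyte marker mean as a covariate the Fads2 value was -0.02 and 3 of the 10 genes were positive. With the oligodendrocyte marker mean the median of the 10 went from 0.06 to 0.0047. Ranges of both marker means did not overlap between refed EOD and refed AL, so these fits too separate them poorly from the group. The same refed AL libraries served both comparisons.

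Between refed EOD and refed IF16, 0 of the 10 genes were called by edgeR (background 0.0182% of 16444 genes) and 0 by DESeq2, with Fads2 and Fasn under an unadjusted p of 0.05 (9.75% of all genes were). Fads2 had a log2 difference of -0.16 (SE 0.0488, adjusted p = 0.307), and all 5 refed EOD libraries lay below the refed IF16 mean. Of 10 fits that each left out 1 library, 1 called it, without refed IF16 replicate 1 (adjusted p = 0.0497), and the highest adjusted p was 0.547. No range was free of overlap, which held for 1.26% of all genes.

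**Figure D4:**
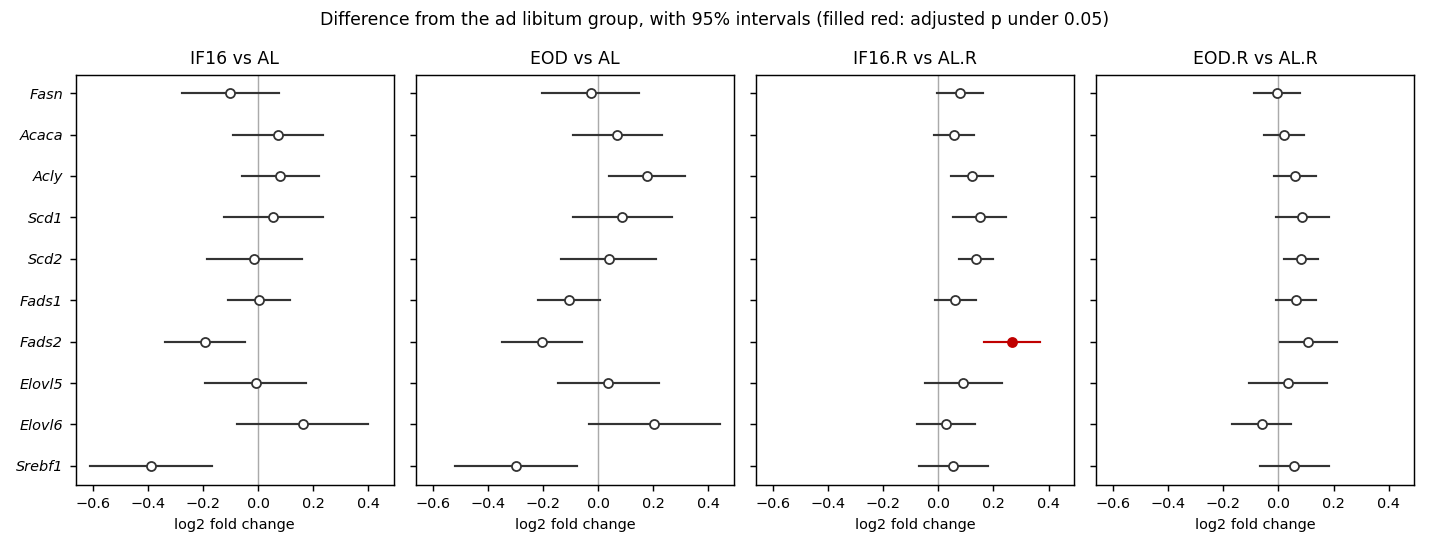
Log2 fold change (points) and 95% interval (lines) of the 10 genes against the ad libitum group of the same table, for IF16, EOD, refed IF16 and refed EOD. Fads2 in refed IF16, at 0.27, is the filled red point, and Srebf1 (-0.39 and -0.30) and Fads2 (-0.19 and -0.20) are the values farthest below 0 in the fasting groups.

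A fit of all 30 libraries tested whether the gap to the controls was different before and after refeeding. For IF16, edgeR called 1 of 10 genes, Fads2, where the background was 0.0474% of 16877 genes. Fads2 and Srebf1, 2 of 10, were under an unadjusted p of 0.05, as were 7.21% of all genes. The difference of Fads2 from the controls moved by 0.46 on the log2 scale (SE 0.0830, edgeR adjusted p = 0.0137), from below the controls in IF16 to above them in refed IF16. In IF16 5 of 5 libraries lay below the AL mean, and in refed IF16 5 of 5 lay above the refed AL mean. DESeq2 gave an adjusted p of 0.000187. In the same test oligodendrocyte markers were positive in 9 of 10 (median 0.18), microglia markers in 6 of 6 (0.21) and red blood cell markers in 0 of 5 (-0.87), with 0 called, and with the oligodendrocyte marker mean as a covariate the Fads2 value was 0.45 (adjusted p = 0.0443). Of 20 fits that left out 1 library, 19 kept the call, and without refed AL replicate 3 the adjusted p was 0.0535. With the length gradient as a covariate the value was 0.46 (adjusted p = 0.00411), and with the astrocyte marker mean it was 0.38 (adjusted p = 0.0529). For Srebf1 the value was 0.45 with a larger error (SE 0.125), and it did not pass (edgeR adjusted p = 0.345). Of the 20 fits that left out 1 library, 1 called Srebf1. That fit was without IF16 replicate 2, its highest IF16 library (adjusted p = 0.0233), and the highest adjusted p of the 20 was 0.574.

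For EOD the same test called 0 of 10 genes (background 0.0119%) by edgeR and 0 by DESeq2. Of the 10 genes, 4 were under an unadjusted p of 0.05, beside 10.3% of all genes. These were Fads2 (0.31, SE 0.0830, adjusted p = 0.288), Srebf1 (0.35, SE 0.125, adjusted p = 0.434), Fads1 (0.17, SE 0.0580, adjusted p = 0.427) and Elovl6 (-0.27, SE 0.128, adjusted p = 0.481). The 2 controls also differed from each other. In refed AL against AL, edgeR called 2 of 10 genes, Acaca (log2 0.28, SE 0.0585, adjusted p = 0.00475) and Fasn (0.17, SE 0.0646, adjusted p = 0.0492), both higher in refed AL. With Elovl6 (0.22, higher in refed AL) and Fads2 (-0.13, lower in refed AL), 4 of 10 were under an unadjusted p of 0.05, as were 40% of all genes. The background there was 23.9% of 16877 genes, so the share of called genes among the 10 lay near it. Age, table and any sequencing batch cannot be told apart in that comparison, and both controls enter the tests of a changed difference. Of 10 oligodendrocyte markers 4 were called lower in refed AL (Mobp -0.33, Mag -0.28, Mog -0.31, Cldn11 -0.28), and the Purkinje cell markers Pcp2 (0.47) and Itpr1 (0.46) were called higher. Of 10 fits that each left out 1 library, all called Acaca and 3 called Fasn. With the oligodendrocyte marker mean as a covariate the values were 0.29 (Acaca) and 0.15 (Fasn), and neither was called in a fit that called 1 gene of all in place of 4030. With the length gradient they were 0.19 and 0.14, also not called, where 223 genes were.

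Other genes of lipid synthesis were read from 5 lists, of which Scd4 alone was not tested. The counts of genes under an unadjusted p of 0.05 stand beside 9.92% of all genes in IF16, 14.4% in EOD, 9.58% in refed IF16 and 8.5% in refed EOD. No gene of the lists was called by edgeR in any of the 6 comparisons within a table or in the 2 tests of a changed difference, and DESeq2 called 2 genes of the lists in EOD against AL, among them Elovl2. Of 16 regulators of lipogenesis, 2 were under an unadjusted p of 0.05 in IF16, 2 in EOD, 3 in refed IF16 and 0 in refed EOD. Mid1ip1, a partner that activates acetyl-CoA carboxylase, had means of 91.9 CPM for AL, 76.4 for IF16 and 71.5 for EOD, with log2 fold changes of -0.27 (SE 0.104) and -0.36 (SE 0.104) and edgeR adjusted p-values of 0.432 and 0.247. Scap, which escorts SREBPs to the Golgi, had a log2 fold change of 0.09 (adjusted p = 0.434) in refed IF16, and the oxysterol receptor gene Nr1h3 had -0.08 (adjusted p = 0.662) in refed EOD.

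Of the 11 genes of acetyl-CoA and NADPH supply, 0 were under an unadjusted p of 0.05 in IF16 or refed IF16, 2 in EOD and 2 in refed EOD. The smallest p-values belonged to Mlycd, malonyl-CoA decarboxylase, in IF16 (-0.25, adjusted p = 0.517), to Idh1, a source of cytosolic NADPH, in EOD (-0.16, adjusted p = 0.317) and refed EOD (0.14, adjusted p = 0.446), and to G6pdx in refed IF16 (0.05, adjusted p = 0.642). Of the 16 tested genes of elongation and desaturation outside the 10, 2 were under an unadjusted p of 0.05 in IF16, 5 in EOD, 1 in refed IF16 and 0 in refed EOD. Elovl2, which lengthens polyunsaturated chains after Elovl5 and is made by astrocytes, had means of 28.7 CPM for AL, 36.7 for IF16 and 38.5 for EOD. Its log2 fold change was 0.36 (SE 0.0943) in IF16 and 0.42 (SE 0.0943) in EOD, with edgeR adjusted p-values of 0.266 and 0.158 and a DESeq2 adjusted p of 0.0135 in EOD. Those values have the opposite sign to Fads2, an earlier enzyme of the same pathway. Hacd1 had the smallest p in refed IF16 (-0.18, adjusted p = 0.513) and Fads6 in refed EOD (-0.07, adjusted p = 0.612).

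Among 16 genes of fatty acid activation and glycerolipid assembly, 2 were under an unadjusted p of 0.05 in IF16, 3 in EOD, 2 in refed IF16 and 1 in refed EOD. Agpat2 had the smallest p in IF16 (-0.46, adjusted p = 0.446) at a mean of 1.48 CPM in IF16, Acsl4, which activates arachidonic acid, in EOD (0.26, adjusted p = 0.309) and refed EOD (0.11, adjusted p = 0.574), and Gpam in refed IF16 (0.13, adjusted p = 0.487). Of 17 genes of sterol synthesis and uptake, 7 were under an unadjusted p of 0.05 in EOD (14.4% of all genes were), all with negative values, and the list's median log2 fold change was -0.16, beside -0.02 over all genes. In IF16 3 were, 1 negative and 2 positive (Cyp51 and Hmgcs1), and the median was 0.04. In EOD against IF16, which shares the EOD libraries, 16 of 17 were negative and 6 were under an unadjusted p of 0.05, beside 3.62% of all genes. In the test of a changed EOD difference 14 of 17 were positive and 9 were under that p, beside 10.3%. That test subtracts the same EOD against AL difference, so its positive values are not a separate result. These sterol values are from fits without covariates. In EOD against AL, oligodendrocyte markers were positive in 1 of 10 (median -0.07, 0 called). With their mean as a covariate 835 genes of all were under an unadjusted edgeR p of 0.05, in place of 2390. The part of these markers in the sterol values was not tested. After refeeding the sterol list had medians of 0.07 in refed IF16 and 0.08 in refed EOD, with Sc5d (0.14, adjusted p = 0.323) and Hmgcs1 (0.08, adjusted p = 0.616) having the smallest p-values.

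**Figure D5:**
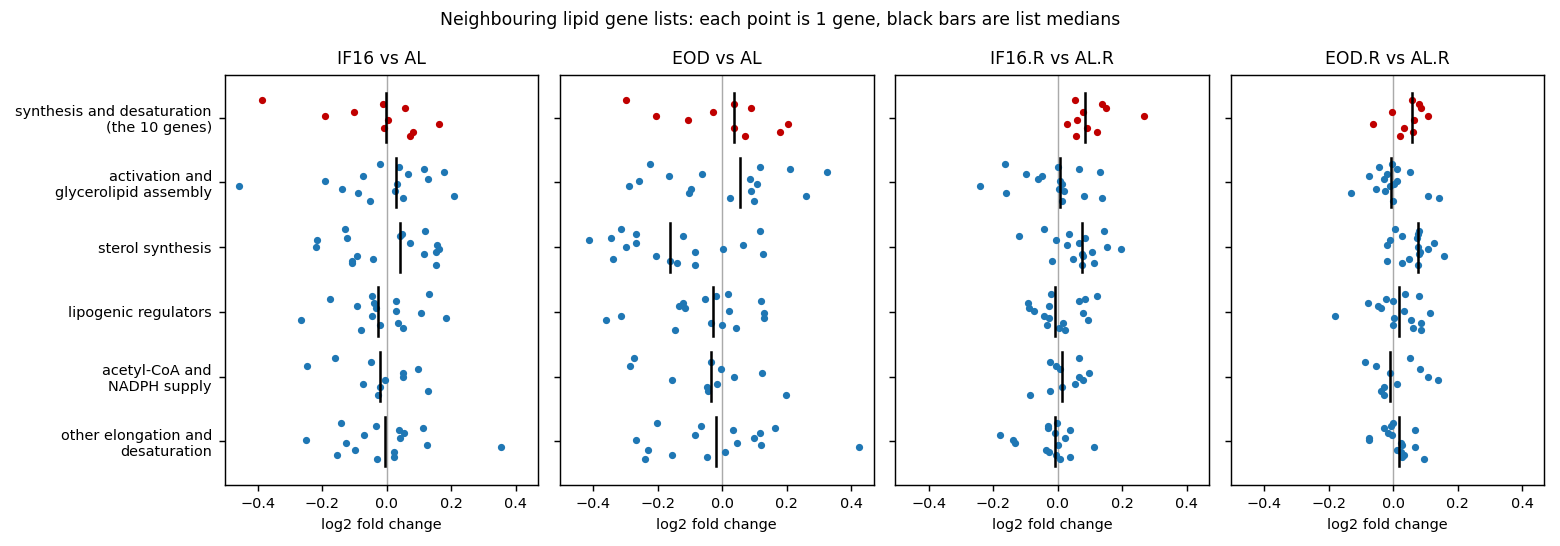
Log2 fold change against the ad libitum group of the same table for the 10 genes (red) and the 5 further lists (blue), 1 point per gene, with list medians as black bars. In EOD the median of sterol synthesis lies at -0.16 and that of the 10 genes at 0.04, and in refed IF16 the 10 genes all lie above 0 with a median of 0.08 (5 of 10 and 0.02 with the astrocyte marker mean as a covariate).

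In refed AL against AL, where 23.9% of all genes were called, 17 of the 76 tested genes of the lists were called (22.4%, near that share), 13 lower and 4 higher in refed AL. Those lower were Mid1ip1 among the regulators, Mlycd, Idh1 and G6pdx in acetyl-CoA and NADPH supply, Cyb5a, Elovl1 and Tecr in elongation, Agpat4, Acsl3 and Agpat2 in glycerolipid assembly, and Pmvk, Fdps and Mvk in sterol synthesis. Those higher were Fads6, Lpin1, Acsl6 and Lss. The log2 values ran from -0.47 (Agpat2) to 0.33 (Lss).

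Fasn, Scd1, Scd2 and Srebf1 were compared with 12944 other protein-coding genes by Pearson's r of log2 CPM over the 15 libraries of the regimens, which share depth differences, length gradients and tissue make-up. Group means were not removed, so r also holds the differences between the groups. Srebf1 was most like Ltbp4 (r = 0.953), Sox12 (0.944) and Kifc3 (0.931), and over the 15 refed libraries those r were 0.459, 0.767 and 0.128. Among the 10 genes, Fads2 was closest to Srebf1, with r = 0.875 in the regimens and -0.129 after refeeding. For Fasn, Apc2 (0.933) and Arhgef17 (0.924) were among the 3 most alike, with 0.781 and 0.893 after refeeding. Scd2 was most like Dscam (0.945), Nfasc (0.934) and Fam155a (0.931), with 0.239, 0.403 and 0.485, and Scd1 most like Erap1 (0.918), Samd5 (0.863) and Kcnh7 (0.860), with -0.302, 0.276 and 0.0838. After refeeding the closest of the 10 to Scd2 was Acly, with r = 0.902, where it had been 0.742 in the regimens.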

How the data were processed

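Whole-number read counts per gene were deposited by the authors in 2 tables, 1 for the 15 libraries at the end of the regimens and 1 for the 15 refed libraries. Per the submitters' processing notes, STAR 2.5, HTSeq 0.6.1 and DESeq2 (version given as 2) were used on mm10. The annotation release and the handling of strand are not given in the sources used here, so overlapping genes may share reads. The FPKM values deposited by the authors equal the counts per gene length and library total (largest relative difference 5e-12) and were used only to compare genes.

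Counts were tested with edgeR 4.0.16 in R 4.3.3 (quasi-likelihood test, TMM, filterByExpr by group, Benjamini-Hochberg over all genes tested, called at an adjusted p under 0.05), in 1 fit of 15 libraries per table and 1 joint fit of 30 for changes between tables. Standard errors come from the F statistic, and 95% intervals from its t distribution. CPM are scaled within each table, and levels were not compared across tables. Totals of 26799825 to 36167435 counts leave the spread between libraries, not counting error, as the limit. Pairs within a group differed by more than sampling noise (chi-square per degree of freedom 4.24 to 136). The test was tried on simulated data: in EOD against AL it recovered 11% of 100 genes changed by 0.3 on the log2 scale and 81% of 100 changed by 0.6, over 16455 genes, and in refed EOD against refed AL 79% and 98%, over 16324.

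The 10 genes and the lists were chosen with earlier results of these data known. Named were all 10 genes, list genes called, the smallest p per list and comparison with a control, and for Fasn, Scd1, Scd2 and Srebf1 the 3 genes with the highest r among protein-coding genes at a mean of at least 1 CPM. Alternatives were DESeq2 1.42.0, RLE size factors, library totals, no filter, covariates, a replicate block, 10-library fits and leaving out libraries. The 12 chromatin samples were not analysed here. Some genes that the rule would name are not reported here.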

Additional observations from a re-analysis of the deposited data

Results flagged for a closer look

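Of 60 sets of 5 libraries, 4 held a value far from the other 4 (a gap of over 0.71 of the range), and chance gives about 1 in 20. In IF16, Acaca reached 57.0 CPM in 1 library, with the others between 52.6 and 53.1. In IF16, Scd2 was at 1290 CPM in replicate 1, a library with a length gradient of -0.114, with the others between 1437 and 1484. In EOD, Fads1 reached 181 CPM and Srebf1 71.0 CPM, both in replicate 4, whose length gradient was 0.139, where the next highest values were 169.5 and 62.5 CPM. The part of the length gradient in these values was not tested.

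The difference of Fads2 from its controls was 0.46 higher on the log2 scale after refeeding than at the end of IF16 (edgeR adjusted p = 0.0137), with 5 of 5 libraries below the AL mean in IF16 and 5 of 5 above the refed AL mean in refed IF16.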

How the results depend on the processing

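No alternative called any of the 10 genes in IF16 or EOD against AL, EOD against IF16, refed EOD against refed AL or the EOD change after refeeding. In refed IF16 against refed AL the count of 1 became 0 with the length gradient, the oligodendrocyte or (added after seeing the data) the astrocyte marker covariate and with 10 libraries only, 2 (Fads2 and Scd2) with DESeq2 or the replicate block, and 0 to 2 leaving out a library. The length gradient and astrocyte fits called 0 genes of all in that comparison, in place of 28. For the IF16 change after refeeding it was 0 with the astrocyte covariate and 0 to 2 leaving out a library, and in refed EOD against refed IF16 0 to 1. In refed AL against AL the count of 2 was 0 with the length gradient (Acaca 0.19) or oligodendrocyte covariate (Acaca 0.29, as large as 0.28 without it, in a fit that called 1 gene of all), 1 with the choroid plexus covariate, with no filter or (added) without the 4 libraries of extreme gradient, and 1 to 4 leaving out a library. There Acaca was called in all 10 such fits, with Fasn in 3. Without AL replicate 1, Scd1 and Elovl6 (adjusted p = 0.00476) joined. Over all genes, DESeq2 called 94 in IF16 (edgeR 8), 131 in EOD (11), 1 between them (0), 108 in refed IF16 (28), 90 in refed EOD (7) and 119 between them (3).

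Same-numbered libraries correlated in their deviations between -0.534 and 0.322 in the regimen table. In refed AL and refed IF16 all 5 pairs were positive (0.0926 to 0.427), 3 were over 0.1 and 3 of 5 libraries correlated best with their own number, as a hint from the data. Not every pair was over 0.1 in any 2 groups, so the numbers were not taken to pair the samples. The replicate block gave 5, 4, 0, 95, 45 and 40 calls over all genes in those 6 comparisons, with Scd2 added (adjusted p = 0.0383), and could not be estimated for refed AL against AL.

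The turned signs listed here were all of uncalled values. Turns in EOD against IF16, refed EOD against refed IF16 and the tests of a changed difference are not listed. For refed AL against AL, Elovl6 alone is listed, although others of the 10 genes turned. There 3 of 10 were positive with the length gradient, in place of 7, and 4 without the 4 libraries of extreme gradient. With the length gradient, the listed turns were in EOD Scd1 (-0.0004), Scd2 (-0.0859) and Elovl5 (-0.0766), and in refed IF16 Acaca (-0.0099), Elovl5 (-0.019) and Elovl6 (-0.0553), and in refed AL against AL Elovl6 (-0.0034). With the oligodendrocyte covariate, they were in EOD Scd2 (-0.0443) and Elovl5 (-0.0652), and in refed IF16 Elovl5 (-0.017) and Elovl6 (-0.0153), and in refed EOD Elovl5 (-0.079). With the astrocyte covariate, they were in refed IF16 Fasn (-0.0326), Acaca (-0.017), Fads1 (-0.027), Elovl5 (-0.0004) and Elovl6 (-0.0413), and in refed EOD Acaca (-0.0433), Acly (-0.015), Fads1 (-0.0136), Fads2 (-0.0232), Elovl5 (-0.0444) and Hmgcs1 (-0.019). Without the 4 libraries, they were in IF16 Fads1 (-0.0072), and in EOD Acaca (-0.0248), Scd1 (-0.0116), Scd2 (-0.1149) and Elovl5 (-0.0327). Leaving out 1 library, values that crossed 0 ran in IF16 from -0.0522 to 0.0327 (Scd2), -0.0206 to 0.0303 (Fads1) and -0.0656 to 0.0485 (Elovl5), and in EOD from -0.1001 to 0.0228 (Fasn), -0.0379 to 0.0805 (Scd2) and -0.0189 to 0.0828 (Elovl5), and in refed IF16 from -0.0071 to 0.0544 (Elovl6), and in refed EOD from -0.0324 to 0.0165 (Fasn). The cause was not tested.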
